A study of Mus musculus with 30 samples.

Results

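The genes described here were those still low at day 32 of chemical reprogramming of mouse fibroblasts and high in the chemically induced pluripotent stem cells (CiPSCs) and embryonic stem cells (ESCs) of the same array set. They were chosen by their intensities in set 5, the time course: values under 16 were set to 16, each gene was read from its brightest probe, and the lower of the CiPSC and ESC intensities was divided by the highest intensity among fibroblasts, Day12, Day20 and Day32. The 150 largest ratios among genes of at least 500 in both pluripotent samples were taken, and 8 well-known genes (Esrrb, Fgf4, Zfp42, Nanog, Tdgf1, Ooep, Dazl and Mageb16) were set aside. Of these 8 genes, 7 stood among the 150, so 143 genes remained of 19062 genes with a symbol and 6094 genes over the minimum level. The name "still off" did not hold for every one of them, because 13 had an intensity of 500 or more at Day32. Set 5 chose the genes, so its values are given as a description with no test, and sets 1 to 4, which the choice did not use, carry the tests.

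Linear fluorescence intensities of 30 samples had been measured on a 1-colour mouse oligonucleotide array, in 5 sets normalized separately. Set 5 held MEF3 (untreated mouse embryonic fibroblasts, MEFs), Day12 cells treated with VC6TF, Day20 and Day32 cells, an established line called CiPSCs (VC6TF+Z) and ESC5 (R1 embryonic stem cells), 1 array value each, which the design text gives as a merge of 2 replicates. The treatment of the Day20 and Day32 cells is not given here, so the days may differ in treatment as well as in time. Sets 1 to 4 held 10 CiPSC lines, 2 iPSC lines made with OSKM, 2 iPSC lines made with SKM and treated with F (SKM-FSK), 4 ESC samples and 6 somatic samples. The CiPSC lines came from MEFs, except MNF CiPS7 and MNF CiPS1 (neonatal fibroblasts), MAF CiPS3 (adult lung fibroblasts) and ADSC CiPS2, whose title names adipose-derived cells while its source label names adult lung fibroblasts. Their labelled treatments were VC6TFMP+Z (CiPS34), VC6TFS+Z (MNF CiPS7), VC6F+Z (CiPS50), VC6TFDBS+Z (CiPS21), VCT6FMDBR+Z (MNF CiPS1), VC6TFDM+Z (MAF CiPS3), FC6+Z (CiPS45) and VC6TFMPS+Z (ADSC CiPS2, CiPS WT1 and CiPS WT2); the labels give these codes and they are not spelled out here. The ESCs were R1, except ESC2, which was TT2. All pluripotent lines grew on mitomycin C-treated MEF feeders. The somatic samples were MEF1 in set 1, MNF (neonatal fibroblasts), MAF (adult lung fibroblasts) and ADSC in set 2, WT MEF in set 3 and MEF2 in set 4, all without treatment. Nothing in the labels says that samples of a group came from separate cultures, so p-values measure the spread between these samples, which may be technical in part.

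Mouse pluripotent cells run a self-reinforcing network of transcription factors and, beside it, express many genes otherwise active only in germ cells. Many of those germ line genes are held silent in body cells by methylation of CpG sites in their promoters. Pluripotent cells also divide fast with a short first gap phase, and they hold high levels of factors for DNA replication, repair and mitosis.

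Marker genes were set against the labels. Of 25 fibroblast and feeder genes in set 5, the summed intensity was 253874 in MEF3, 415162 at Day12, 349971 at Day20, 259632 at Day32, 28320 in CiPSCs and 24516 in ESC5. The sum rests on a few bright genes: Thy1 was 52294 and Dcn 37836 at Day32, against 20738 and 8278 in MEF3, while Loxl1 was 10625, against 56328. Gene by gene, 16 of the 25 were above MEF3 and 9 below it at Day12 and at Day20, and 12 were above and 13 below at Day32. In bulk samples, fewer cells of a type and less RNA per cell cannot be told apart, and the part of the remaining fibroblasts in the low day values was not tested. Naive pluripotency markers (35 genes) had a median intensity of 91.0 in MEF3, 89.4 at Day32, 621 in CiPSCs and 1013 in ESC5, but core members of that list went against the labels in set 5. Pou5f1, the central pluripotency factor, had 389 at Day32, 24.2 in CiPSCs and 140.5 in ESC5, Sox2 had 41.1 in CiPSCs and 34.2 in ESC5, and Lin28a, Sall4, Dppa2 and Fbxo15 were at or under 16 in both. Extraembryonic endoderm markers had a median intensity of 241 in MEF3, 2407 at Day32, 107 in CiPSCs and 203 in ESC5. In CiPSCs against somatic samples of sets 1 to 4, 11 of 12 fibroblast genes tested fell and 23 of 23 naive pluripotency genes tested rose (limma, Benjamini-Hochberg adjusted p under 0.05 and at least 2-fold).

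The median intensity of the 143 genes was 47.3 in MEF3, 44.8 at Day12, 49.3 at Day20, 67.1 at Day32, 2189 in CiPSCs and 2190 in ESC5. The median over all genes lay between 169 and 193 in all 6 samples. The ratio that chose the genes ran between 7.97 and 976, with a median of 14.2; it was over 100 for 6 genes, over 50 for 21, over 20 for 53 and over 10 for 106. Just inside the limit stood Rpl8 (8.06), Herc4 (7.99) and Nup188 (7.97), and just outside it 1700049L16Rik (7.87), Mdn1 (7.86) and Heatr5b (7.80). In 12 genes all 4 early samples were under 16, and the CiPSC and ESC5 intensities lay within 2-fold of each other for 118 genes (82.5%, against 87.9% of all genes over 500 in both).

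**Figure D1:**
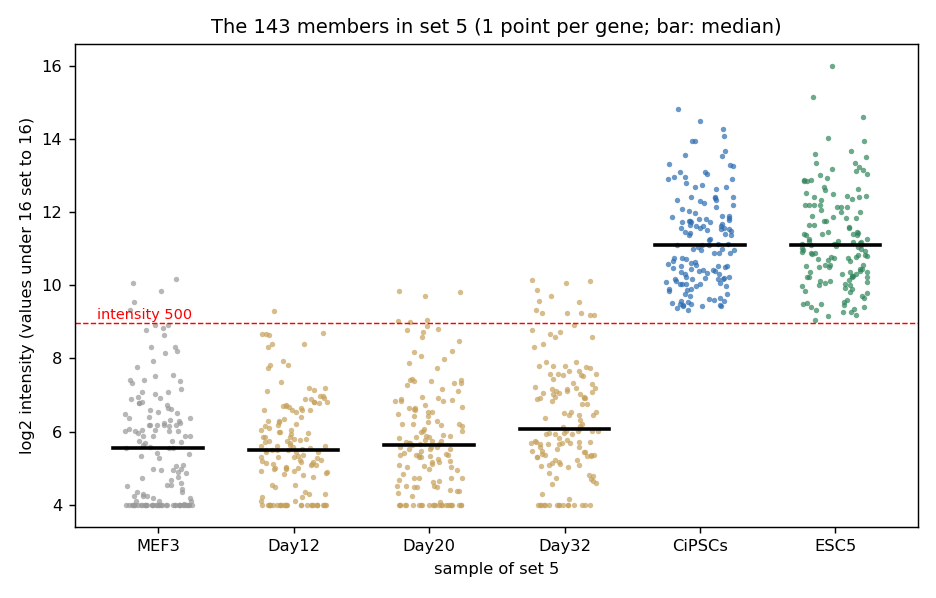
Log2 intensity of the 143 genes in the 6 samples of set 5 (values under 16 drawn at 16), 1 point per gene, with a bar at each sample's median and a dashed line at an intensity of 500. As intensities, the medians stand between 44.8 and 67.1 in MEF3 and the 3 days and at 2189 and 2190 in CiPSCs and ESC5; the genes were chosen on these samples.

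The 12 largest ratios belonged to 8430423G03Rik (976), Tac4 (550), Asic1 (219), Ankrd55 (145), Heatr9 (143), Khdc3 (114), Snrk (96.5), Chek1 (86.7), Igsf5 (85.5), Atp12a (82.3), H2ac21 (76.9) and Faap24 (75.4). Tac4, a tachykinin peptide precursor on chromosome 11 (chr11:95261529-95269265, GRCm38.p6), had intensities of 41.8 in MEF3, 30.2 at Day12, 20.8 at Day20, 13.7 at Day32, 22948 in CiPSCs and 36085 in ESC5. 8430423G03Rik had 9.08 in MEF3, 9.75 at Day12, 3.58 at Day20, 8.75 at Day32, 15616 in CiPSCs and 16696 in ESC5. In both genes every early sample was at or near the background and both pluripotent samples were far above it. Of these 12 genes, 6 had no value in sets 1 to 4 (8430423G03Rik, Tac4, Ankrd55, Heatr9, Chek1 and H2ac21), so their pattern was seen in set 5 alone. Only 3 of the 12 could be tested for CiPSCs, and they went different ways: Asic1 rose, Snrk fell and Faap24 was not called.

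The label "off" fitted less well for the genes that were already measurable at Day32. The 13 genes of 500 or more at Day32 were Calhm6 (1124), Laptm5 (1109), Cdca5 (1071), Ebf1 (945), Ak4 (842), Pttg1 (757), Dkc1 (749), Mycn (641), Slc25a13 (607), Alg13 (604), Ift88 (600), Aunip (581) and Ezh2 (579). In MEF3 the 5 highest genes were Cdca5 (1158), Dkc1 (1061), Utf1 (912), Qprt (741) and Rpl8 (638.5). At the other end, some values stood at the lowest intensity in the table, 0.1, which can be a failed estimate: Chek1, Atp12a and Rpl8 at Day12, and Atp12a and Rpl8 at Day20 and at Day32. Rpl8, a protein of the large ribosomal subunit that every cell uses, was listed at 0.1 on all 3 days, although its intensity lay between 10144 and 53258 in every sample of sets 1, 3 and 4.

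The highest early value was at Day32 for 79 genes, in MEF3 for 37, at Day20 for 8 and at Day12 for 6, with ties for 13. The Day32 to MEF3 ratio had a median of 1.57, against 1.0 for all genes. At least 2-fold higher at Day32 than in MEF3 were 64 of the 143 genes (background 27.8% of all genes), and 17 were at least 2-fold lower (background 27.8%). Intensities were higher at each later day for 55 genes (background 21.0%) and lower at each later day for 12. The 5 highest Day32 to MEF3 ratios were those of Calhm6 (70.3), Ift88 (30.3), Dancr (11.8), Ercc4 (11.6) and Hsf3 (11.6). The rule held the early samples to a low ceiling, so nothing is read from these shares.

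Grouped by what the genes do, the courses differed in level. Genes of pluripotency and the early embryo had a median intensity of 184 in MEF3, 57.8 at Day12, 53.7 at Day20 and 74.3 at Day32, with a median Day32 to MEF3 ratio of 0.51. Genes of DNA replication, repair and mitosis had medians of 55.9 in MEF3, 40.4 at Day12, 104 at Day20 and 153 at Day32, and 9 of 14 were higher at each later day. Germ line and meiosis genes had medians of 91.0, 65.6, 58.7 and 114 in MEF3 and at Day12, Day20 and Day32. The groups were drawn up with the values known, and these values chose the genes.

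**Figure D2:**
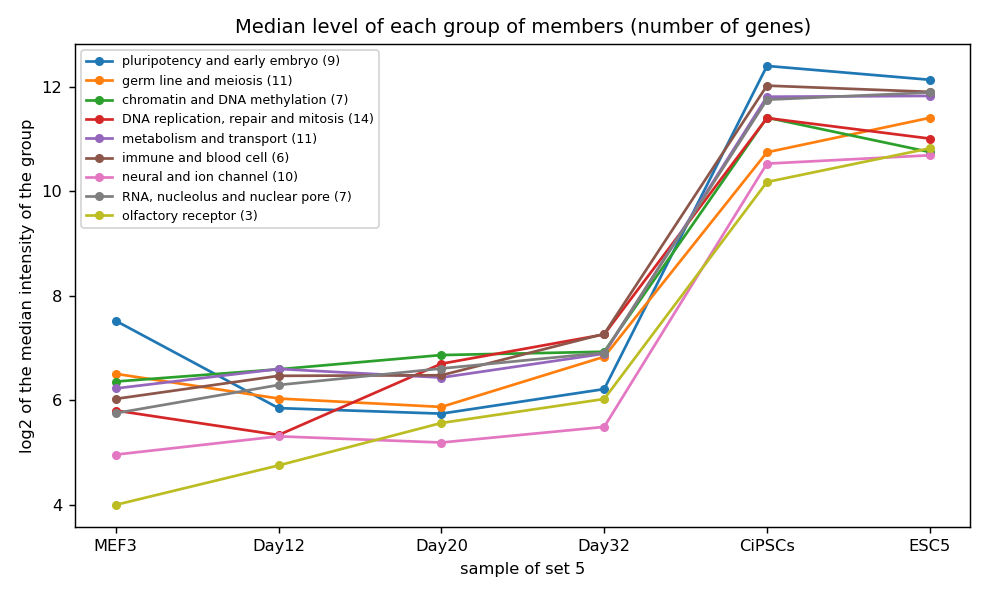
Log2 of the median intensity of each group of genes by role in MEF3, Day12, Day20, Day32, CiPSCs and ESC5 (the number of genes is in the legend). The replication, repair and mitosis genes reach a median intensity of 153 at Day32, against 55.9 in MEF3, and every group lies far lower on all 3 days than in CiPSCs and ESC5.

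Sets 1 to 4 were then read for the same genes. Values existed for 75 of the 143 genes in set 1, 77 in set 2, 81 in set 3 and 122 in set 4, or 52.4%, 53.8%, 56.6% and 85.3%, against 83.2%, 92.3%, 95.3% and 98.0% of the genes over 500 in CiPSCs and ESC5. In 21 genes no set held a value, and in 32 only set 4 did. Which rule left probes out of the deposited sets is not given in the sources used here, so the tested genes are those that passed it and not the whole list.

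Most of the genes that could be tested were higher in pluripotent cells. In CiPSCs against somatic samples, 61 of 81 tested genes rose (75.3%, background 16.4%) and 3 fell (3.70%, background 15.5%), with a median log2 difference of 3.09 against 0.0002 over all genes. In ESCs, 66 of 90 rose (73.3%, background 16.1%) and 3 fell (3.33%, against 2293 of 14361 genes), with a median of 2.91 against 0.06. In the OSKM iPSCs, 45 of 67 rose (67.2%, background 15.1%) and 2 fell (2.99%, background 12.6%), and in the SKM-FSK iPSCs 63 of 90 rose (70.0%, background 11.9%) and 2 fell (2.22%, background 12.3%). The 4 comparisons share their somatic samples and are not independent of each other. Of the 61 genes that rose in CiPSCs, 41 did so by at least 3 on the log2 scale and 15 by at least 5, and 60 had the same sign in every set with both groups, Laptm5 being the exception. The shares of all genes with such sizes or signs were not counted, so nothing is read from these 3 counts. Sample by sample, each of the 62 genes measured in all 4 sets was taken as its log2 difference from the ESC of the set. The median of these differences lay between -0.17 and 0.36 in the CiPSC lines. It was -0.26 and 0.03 in the OSKM iPSCs and -0.07 and -0.02 in the SKM-FSK iPSCs, against -3.07 to -2.42 in the somatic samples. No pluripotent line overlapped with a somatic sample in this median.

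Within single sets, every pluripotent sample was above every somatic sample for 59 of 75 genes in set 1 (background 27.9%), 50 of 77 in set 2 (background 15.4%), 68 of 81 in set 3 (background 36.7%) and 97 of 122 in set 4 (background 44.1%). By at least 2-fold this held for 48 genes in set 1 (background 8.33%), 42 in set 2 (background 4.09%), 61 in set 3 (background 13.2%) and 83 in set 4 (background 15.9%). Of the 62 genes with values in all 4 sets, 41 were above in every one (background 10.6% of all genes in the 4 sets) and 29 by at least 2-fold (background 2.73%). Of the 122 genes with any value, 78 were above in every set that measured them (background 15.9%), 61 by at least 2-fold (background 5.16%), and 22 were above in none (background 48.5%).

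**Figure D3:**
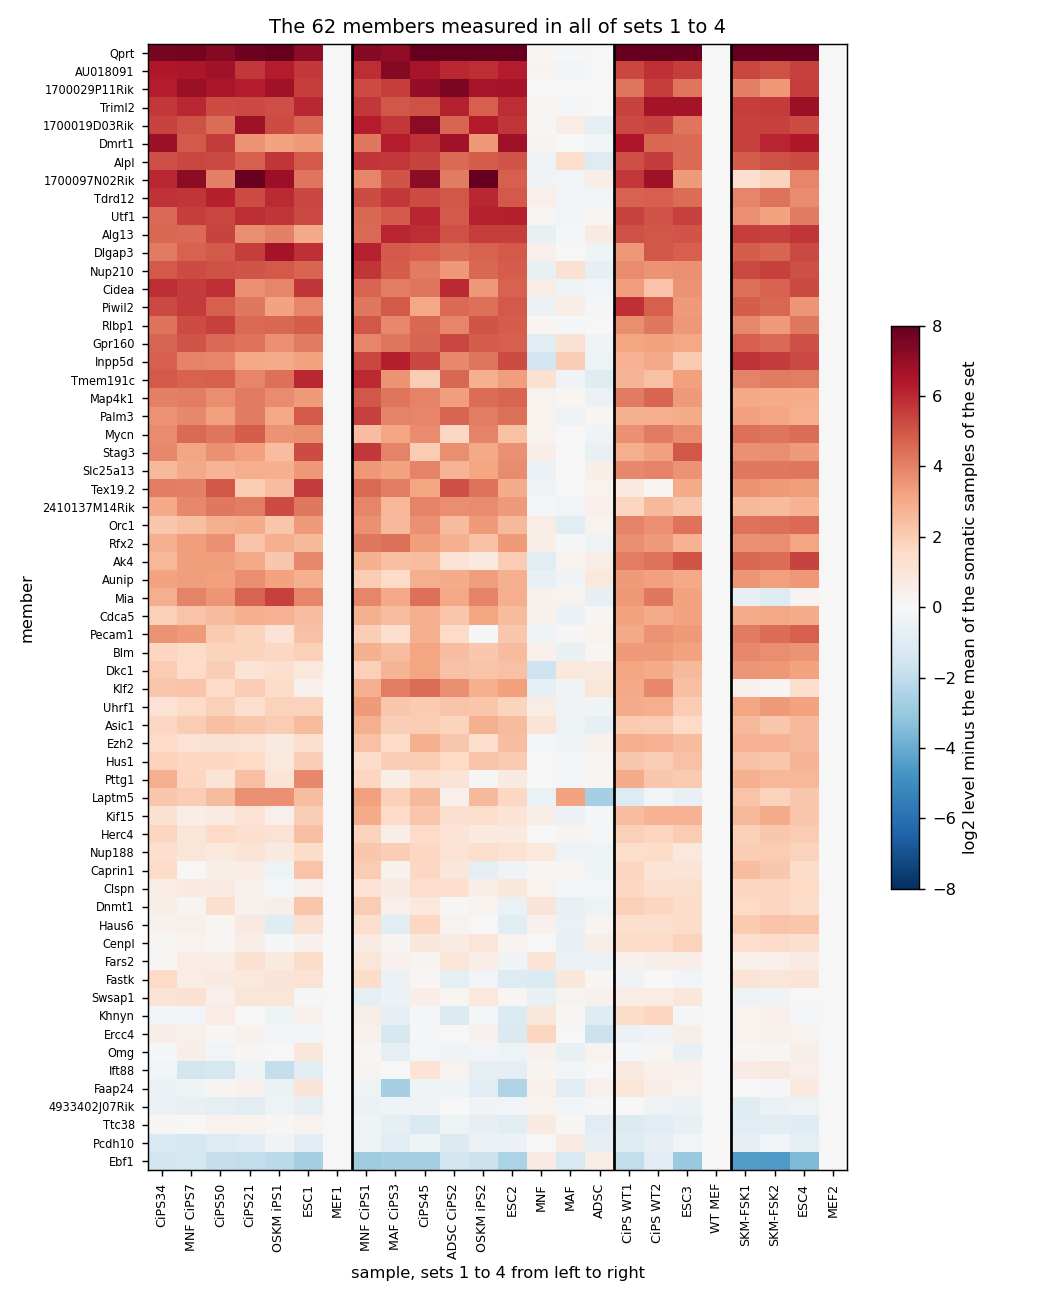
Log2 intensity of the 62 genes measured in all of sets 1 to 4, minus the mean of the somatic samples of the set, by sample (columns, sets divided by black lines) and gene (rows, red above and blue below the somatic mean). Qprt, at the top, is deep red in every pluripotent sample (7.89 in the CiPSC fit), Ebf1, at the bottom, is blue (-2.04), and Klf2 and Mia are pale in SKM-FSK1 and SKM-FSK2.

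**Figure D4:**
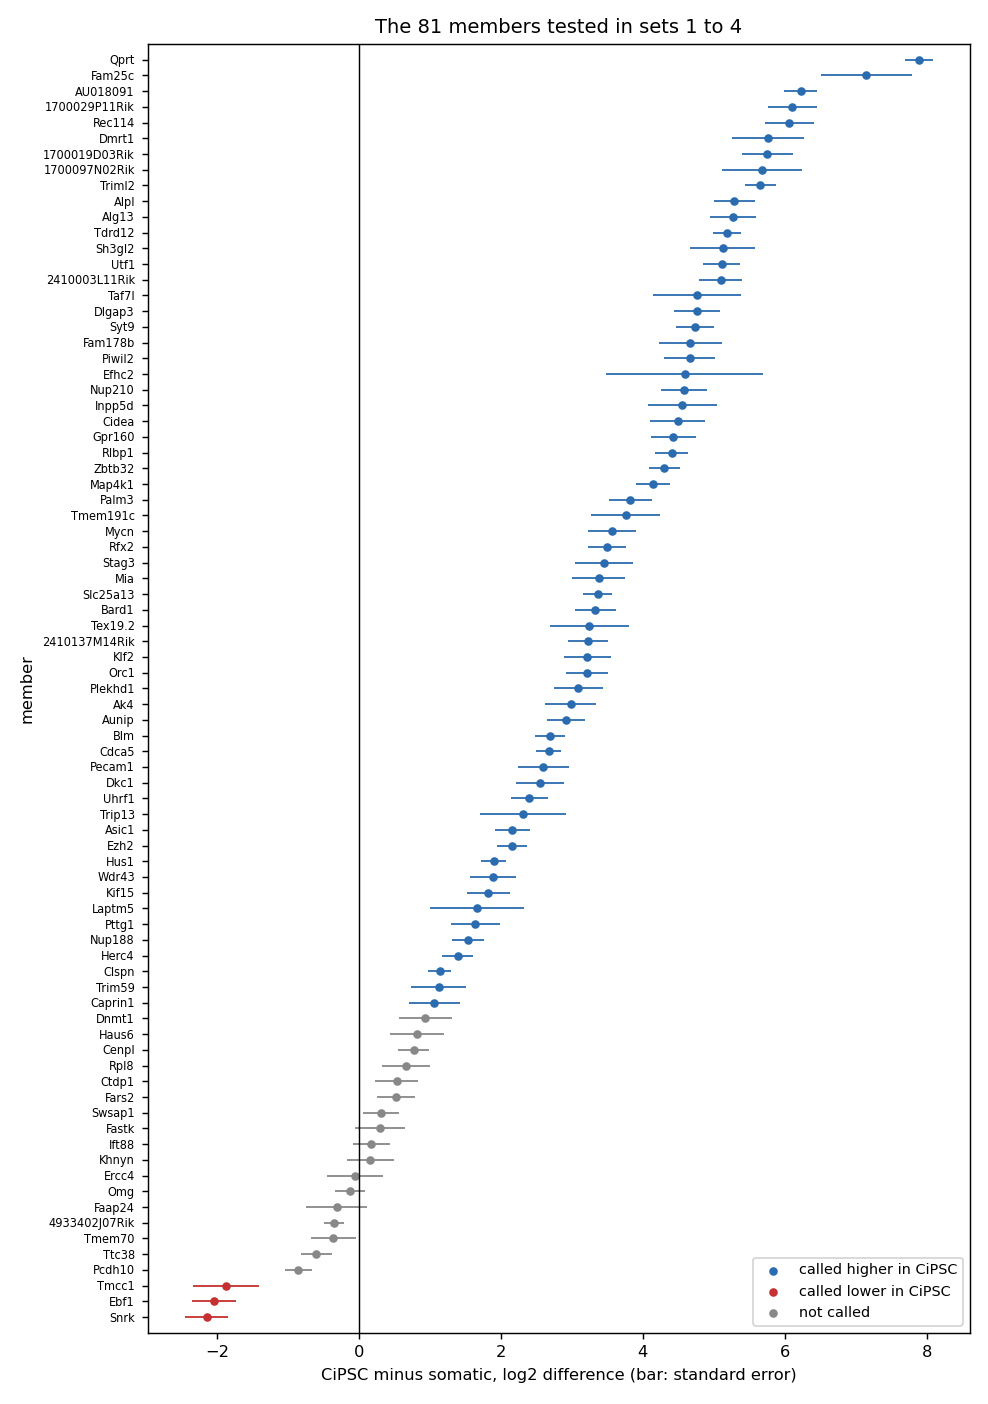
Log2 difference of CiPSCs minus somatic samples in sets 1 to 4 for the 81 tested genes in order of size, with standard errors as bars (blue called higher, red called lower, grey not called). Qprt is the highest at 7.89 and Snrk the lowest at -2.15.

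Among genes of pluripotency and the early embryo, all 6 that could be tested rose in CiPSCs, with a median log2 difference of 4.34 (6 of 6 in ESCs, median 4.13). The background for counts by role is 16.4% of all genes in CiPSCs and 16.1% in ESCs. Of all tested genes of the list, 75.3% rose in CiPSCs and 73.3% in ESCs. Differences of single genes are given as CiPSC minus somatic on the log2 scale with their standard errors, unless another group is named. Triml2 rose by 5.66 ± 0.22 (SE), Alpl, the tissue-nonspecific alkaline phosphatase used to stain stem cell colonies, by 5.29 ± 0.29, Utf1, a chromatin-bound factor of pluripotent cells, by 5.11 ± 0.26, and Mycn, a transcription factor of the Myc family, by 3.57 ± 0.34. Klf2, a factor of the naive network, rose by 3.22 ± 0.33 and Pecam1, a surface adhesion protein, by 2.60 ± 0.36. In SKM-FSK iPSCs Klf2 had a log2 difference of 0.62 ± 0.65 (adjusted p 0.533) and was not called.

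Utf1 (chr7:139943856-139945112, GRCm38.p6) shows the course in full. In set 5 its intensity was 912 in MEF3, 335 at Day12, 267 at Day20, 147 at Day32, 15733 in CiPSCs and 8987 in ESC5. The fibroblasts were higher than every day sample, and both pluripotent samples were higher still. In set 1 the 6 pluripotent samples ran between 4754 and 12129 (median 8878), against 204 in MEF1. In set 3 it was 8398 and 6489 in CiPS WT1 and CiPS WT2 and 8861 in ESC3, against 201 in WT MEF, and in set 4 5793 and 4209 in SKM-FSK1 and SKM-FSK2 and 8202 in ESC4, against 461 in MEF2. The groups did not overlap in any of sets 1 to 4, and the CiPSC difference had an adjusted p of 1.33e-11 (limma).

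Dppa4, a chromatin-associated factor of early embryos, and Khdc3, part of the maternal subcortical complex of oocytes and early embryos, had values in set 4 only. Dppa4 (chr16:48283735-48294292) had 4898 and 5002 in SKM-FSK1 and SKM-FSK2 and 6071 in ESC4, against 17.7 in MEF2, a lowest ratio of 277 to MEF2. Khdc3 had 7369.8 and 5314 in SKM-FSK1 and SKM-FSK2 and 14704 in ESC4, against 48.9 in MEF2. All 3 pluripotent samples of both genes were above MEF2 by over 100-fold, with no test because these genes have values in 1 set with 1 somatic sample. Oosp1, an oocyte-secreted protein, had no value outside set 5, where it was 6526 in CiPSCs and 648 in ESC5, the widest gap between the 2 pluripotent samples.

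Of germ line and meiosis genes, 8 of 9 tested rose in CiPSCs (median 4.66, background 16.4%). In ESCs 9 of 10 rose (median 4.44, background 16.1%). Rec114, needed for the DNA breaks that start meiotic recombination, rose by 6.07 ± 0.35. Dmrt1, a transcription factor of the gonad and germ cells, rose by 5.76 ± 0.50, Tdrd12, of the piRNA pathway that silences transposons, by 5.18 ± 0.20, and Taf7l, a germ cell partner of the general transcription machinery, by 4.76 ± 0.62. Piwil2, a piRNA-binding Argonaute protein, rose by 4.66 ± 0.36, Stag3, a meiotic cohesin subunit, by 3.46 ± 0.40, Tex19.2 by 3.25 ± 0.55, and Trip13, an ATPase of meiotic and mitotic checkpoints, by 2.31 ± 0.61 (adjusted p 0.00585). Swsap1, a factor of meiotic recombination, had a difference of 0.31 ± 0.25 and was not called.

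Rec114 (chr9:58652856-58822706, GRCm38.p6) had intensities of 91 in MEF3, 65.6 at Day12, 56.6 at Day20, 190 at Day32, 5184 in CiPSCs and 9113 in ESC5 in set 5. In set 2 the 6 pluripotent samples ran between 2219 and 4972 (median 4651), against 39.6 in MNF, 55.4 in MAF and 199 in ADSC. In set 4 it was 5748 and 5698 in SKM-FSK1 and SKM-FSK2 and 5016 in ESC4, against 60.8 in MEF2. The groups did not overlap in set 2 or set 4, and ADSC was the highest somatic sample of set 2. Cyct, the testis form of cytochrome c, was tested only in ESCs and SKM-FSK iPSCs and rose by 5.76 ± 0.57 in ESCs. Mael, another piRNA pathway gene, had values in set 4 only, with 1327 and 1901 in SKM-FSK1 and SKM-FSK2 and 753 in ESC4, against 45.4 in MEF2.

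The promoters of 125 of the 143 genes were in the RefSeq table (GRCm38.p6; 250 bases before the annotated start, the first row for genes with several). The 125 had a median of 11 CpG sites, against 6 over 27018 genes, and 62 of them (49.6%) had an observed to expected CpG ratio of 0.6 or more, against 34.5%. The 27018 genes were not filtered by intensity, unlike the 125. By outcome in CiPSCs, the share was 58.2% of 55 genes called higher and 69.2% of 13 tested and not called. It was 22.2% of 18 genes without a value in sets 1 to 4, so it was not particular to the genes that rose. The E-box CACGTG, searched on both strands (the motif is its own reverse complement), occurred in 11 (8.8%), against 6.05%. The E-box was found in 4 of 9 germ line and meiosis promoters and in none of 14 promoters of replication, repair and mitosis genes, of which 13 had the high CpG ratio. It also stood in 2 of 6 promoters of RNA, nucleolus and nuclear pore genes, 1 of 7 of chromatin, 1 of 9 of metabolism and 1 of 6 of immune genes. None of 7 pluripotency and 9 neural promoters held it. The groups are small, and differences between them were not tested. The Esrrb motif TCAAGGTCA (0.8% against 0.366%), the octamer ATGCAAAT (1.6% against 1.61%) and the Klf motif GGGTGTGG (2.4% against 3.19%), each on both strands, were rare. These are counts of letters and not binding sites. The promoters of 5 germ line genes are shown, E-box in capitals, for its place in each: at base -223 from the start in Mael (chr1:166238745-166238994, minus strand), -49 in Taf7l (chrX:134476491-134476740, minus), -170 in Stag3 (chr5:138280259-138280508, plus) and -19 in Rec114 (chr9:58741560-58741809, minus), and without one in Tdrd12 (chr7:35537716-35537965, minus). The table's starts for Stag3 and Rec114 lie inside the annotated gene.
Mael: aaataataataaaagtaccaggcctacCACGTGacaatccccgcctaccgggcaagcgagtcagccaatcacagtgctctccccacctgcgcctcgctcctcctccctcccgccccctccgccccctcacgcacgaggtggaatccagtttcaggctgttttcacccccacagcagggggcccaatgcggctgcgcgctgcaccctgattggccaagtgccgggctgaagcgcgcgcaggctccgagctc
Taf7l: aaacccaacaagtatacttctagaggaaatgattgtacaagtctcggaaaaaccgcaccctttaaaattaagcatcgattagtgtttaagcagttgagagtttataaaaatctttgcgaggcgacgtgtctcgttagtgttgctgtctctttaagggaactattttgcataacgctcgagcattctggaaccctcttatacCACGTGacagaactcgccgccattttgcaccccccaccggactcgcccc
Stag3: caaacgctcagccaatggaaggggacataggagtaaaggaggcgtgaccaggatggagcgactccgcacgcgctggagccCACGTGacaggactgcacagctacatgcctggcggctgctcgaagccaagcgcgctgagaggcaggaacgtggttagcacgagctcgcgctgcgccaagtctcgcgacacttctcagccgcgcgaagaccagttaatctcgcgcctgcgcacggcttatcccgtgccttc
Rec114: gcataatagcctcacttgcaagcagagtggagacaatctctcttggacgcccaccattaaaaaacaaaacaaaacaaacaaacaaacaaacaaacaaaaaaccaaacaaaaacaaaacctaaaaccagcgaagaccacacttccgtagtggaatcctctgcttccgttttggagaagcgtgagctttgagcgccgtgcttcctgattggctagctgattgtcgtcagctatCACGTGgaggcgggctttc
Tdrd12: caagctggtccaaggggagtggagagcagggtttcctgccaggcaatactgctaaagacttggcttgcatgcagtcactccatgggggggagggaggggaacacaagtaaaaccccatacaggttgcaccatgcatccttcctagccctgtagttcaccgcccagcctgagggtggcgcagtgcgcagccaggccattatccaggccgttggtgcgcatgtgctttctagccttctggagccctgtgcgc

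Among chromatin and DNA methylation genes, 2 of 3 tested rose in CiPSCs (background 16.4%) and 5 of 6 in ESCs (background 16.1%). Uhrf1, which brings the maintenance methyltransferase to newly copied DNA, rose by 2.40 ± 0.26 in CiPSCs, and Ezh2, the polycomb H3K27 methyltransferase, by 2.16 ± 0.21. Dnmt1, the maintenance methyltransferase itself, had 0.94 ± 0.38 (adjusted p 0.0469), under 2-fold. In ESCs Tet1, which oxidises methylated cytosine, rose by 4.10 ± 0.30, Cdca7, needed for maintenance methylation at repeats, by 2.89 ± 0.33 and Sirt1, a deacetylase, by 2.29 ± 0.31; H2ac21, a histone H2A gene, had no value outside set 5. Uhrf1 intensity in set 5 was 172 in MEF3, 214 at Day12, 450.5 at Day20, 404 at Day32, 12015 in CiPSCs and 8277 in ESC5, and in set 3 6369.6 and 6164 in CiPS WT1 and CiPS WT2 and 3369 in ESC3, against 825 in WT MEF.

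Of the DNA replication, repair and mitosis genes, 9 of 13 tested rose in CiPSCs (background 16.4%). Their median log2 difference was 1.82, lower in size than in the groups above (the difference between groups was not tested). Bard1, the partner of BRCA1, rose by 3.33 ± 0.28, Orc1, of the origin recognition complex, by 3.21 ± 0.29, Aunip, which acts with Aurora A and in break repair, by 2.92 ± 0.27, Blm, a DNA helicase, by 2.69 ± 0.21 and Cdca5, which protects cohesin in mitosis, by 2.67 ± 0.18. Hus1, of the checkpoint clamp, rose by 1.90 ± 0.17, Kif15, a mitotic kinesin, by 1.82 ± 0.30, Pttg1, the separase inhibitor securin, by 1.64 ± 0.35, and Clspn, the mediator of the replication checkpoint, by 1.14 ± 0.16. Haus6 (0.82 ± 0.38, adjusted p 0.0853) and Cenpl (0.77 ± 0.21, adjusted p 0.00545) were not called, nor were Ercc4 and Faap24, of crosslink repair.

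In set 5 Orc1 had 31.7 in MEF3, 9.75 at Day12, 26.6 at Day20, 43.8 at Day32, 1044 in CiPSCs and 981 in ESC5. In set 3 it had 517 and 416 in CiPS WT1 and CiPS WT2 and 664 in ESC3, against 33.1 in WT MEF, and in set 4 5368 and 5839.96 in SKM-FSK1 and SKM-FSK2 and 6346 in ESC4, against 270.1 in MEF2. The pluripotent samples were above the fibroblasts in set 3 and in set 4, which the rule did not use. Chek1, the kinase of the replication checkpoint, had 3186 in CiPSCs and 1387 in ESC5 and no value elsewhere.

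Metabolism and transport held the single largest difference. Qprt, an enzyme that makes NAD from quinolinate (chr7:127107770-127122029, GRCm38.p6), rose in CiPSCs by 7.89 ± 0.20 (adjusted p 1.31e-16, limma). Its intensity in set 5 was 741 in MEF3, 97.1 at Day12, 86.6 at Day20, 119 at Day32, 17274 in CiPSCs and 15754 in ESC5, and the fibroblasts of that set stood above the day samples. In set 2 the 6 pluripotent samples ran between 10312 and 24656 (median 19375), against 82.7 in MNF, 67.9 in MAF and 77.5 in ADSC. In set 3 it was 12403 and 16869.9 in CiPS WT1 and CiPS WT2 and 11369 in ESC3, against 36.2 in WT MEF, and in set 4 22178 and 27698 in SKM-FSK1 and SKM-FSK2 and 25554 in ESC4, against 81.3 in MEF2. No pluripotent sample of sets 1 to 4 fell under 10312, and no somatic sample exceeded 99.0.

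Of this group 5 of 6 tested rose in CiPSCs (median 3.93, background 16.4%). Alg13, of N-glycan assembly, rose by 5.27 ± 0.32, Cidea, a lipid droplet protein, by 4.50 ± 0.39, Slc25a13, a mitochondrial aspartate/glutamate carrier, by 3.36 ± 0.21, and Ak4, a mitochondrial adenylate kinase, by 2.98 ± 0.36. Fars2, the mitochondrial phenylalanyl-tRNA synthetase, was not called (0.52 ± 0.26). Kmo, which acts in the same tryptophan breakdown pathway as Qprt, had 59.4 and 75.5 in SKM-FSK1 and SKM-FSK2 and 48 in ESC4, against 62.3 in MEF2 in set 4, where the groups overlapped. The secreted phospholipases Pla2g1b and Pla2g10 were at least 12.2-fold and 15.05-fold above MEF2 in set 4.

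Genes best known from blood and immune cells split. Inpp5d, a lipid phosphatase, rose by 4.56 ± 0.49 and Map4k1, a kinase of blood cells, by 4.14 ± 0.24. Laptm5, a lysosomal protein of blood cells, rose by 1.67 ± 0.66 (adjusted p 0.0436), but lost the call when any 1 of 15 of the 24 samples was left out, with adjusted p between 0.0501 and 0.148, and its difference within set 3 was -0.62. Ebf1, a transcription factor of B cells that is also active in mesenchymal cells, fell by 2.04 ± 0.31 in CiPSCs. Ms4a7 had 21.9 and 18.4 in SKM-FSK1 and SKM-FSK2 and 18.5 in ESC4, against 859.9 in MEF2 in set 4, the lowest ratio to MEF2 of any of the genes once values under 16 are set to 16. Il18r1, a cytokine receptor chain, had no value outside set 5.

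Of genes known from neurons and ion channels, 4 of 6 tested rose in CiPSCs (median 3.45, background 16.4%). Sh3gl2, an endocytosis protein of synapses, rose by 5.13 ± 0.46, Dlgap3, a postsynaptic scaffold, by 4.76 ± 0.32, Syt9, a calcium sensor of exocytosis, by 4.73 ± 0.27 and Asic1, an acid-sensing ion channel, by 2.16 ± 0.25. Asic1 had 6.58 in MEF3, 7.00 at Day12, 4.83 at Day20, 11 at Day32, 3508 in CiPSCs and 7348 in ESC5 in set 5. In set 3 it had only 166 and 159 in CiPS WT1 and CiPS WT2 and 116 in ESC3, against 39.1 in WT MEF. The groups were apart in set 3, at a far smaller ratio than in set 5, where the rule had set them apart. Pcdh10, a protocadherin, had -0.85 ± 0.19, under 2-fold, and Omg, a myelin glycoprotein, -0.13 ± 0.21. The 3 olfactory receptors, Olfr16, Olfr376 and Olfr568, had no value in sets 1 to 4.

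Of genes of RNA handling, the nucleolus and the nuclear pore, 5 of 6 tested rose in CiPSCs (median 1.71, background 16.4%). Nup210, a pore membrane protein, rose by 4.58 ± 0.32, Dkc1, the pseudouridine synthase of telomerase and small nucleolar RNPs, by 2.56 ± 0.34, Wdr43, a ribosome assembly factor, by 1.89 ± 0.33 and Nup188 by 1.54 ± 0.22. Caprin1, an RNA-binding protein, rose by 1.06 ± 0.36, and the call was lost without any of 3 samples, at log2 differences between 0.90 and 0.99. Rpl8 had 0.66 ± 0.34 and was not called.

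Outside these roles, 65 genes remained, many with little known function. The largest differences in CiPSCs among genes of the same sign in every set were Qprt, then Fam25c (7.15 ± 0.64), AU018091 (6.22 ± 0.23), 1700029P11Rik (6.11 ± 0.34), Rec114, Dmrt1, 1700019D03Rik (5.75 ± 0.36) and 1700097N02Rik (5.68 ± 0.56). Trim59 rose by 1.12 ± 0.39 and lost its call without MNF (0.77, adjusted p 0.0848) or CiPS45 (0.89). Measured in set 4 only, Mreg, which acts in melanosome transport, was at least 231-fold and Xlr5b, of an X-linked family, at least 129-fold above MEF2.

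Some genes did not repeat, and a few went the other way. Snrk, a kinase related to AMPK, fell by 2.15 ± 0.30 in CiPSCs (adjusted p 4.30e-05) and Tmcc1, a membrane protein of the endoplasmic reticulum, fell by 1.87 ± 0.46. Snrk (chr9:122117266-122169702, GRCm38.p6) had 4.25 in MEF3, 7.58 at Day12, 15.8 at Day20, 17.8 at Day32, 1893 in CiPSCs and 1713 in ESC5 in set 5. In set 3 it had 122 and 93.5 in CiPS WT1 and CiPS WT2 and 63.1 in ESC3, against 417 in WT MEF, and in set 4 536 and 479.6 in SKM-FSK1 and SKM-FSK2 and 325 in ESC4, against 2358 in MEF2. Every pluripotent sample of sets 2, 3 and 4 was below every somatic one, opposite to set 5. The same held for Ebf1 in sets 1 to 4, with 86.8 and 83.4 in SKM-FSK1 and SKM-FSK2 and 168 in ESC4, against 1928 in MEF2 in set 4, and for Cstad in the 2 sets that measured it. For Cstad the gap in set 3 was very small and at low intensity (24.75 to 26.125, against 26.625 in WT MEF). In set 4 the pluripotent samples had 67.4 to 87.25, against 171.2 in MEF2.

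In all, 11 genes had every pluripotent sample below every somatic sample in each set measured (of 122, background 15.1%). They were these 3 and, in set 4 only, Atp12a, Cdadc1, Spata31d1d, Cys1, Fndc4, Ms4a7, Kif2b and Trim66. Of the 32 genes measured in set 4 alone, 14 were at least 2-fold above MEF2 in every pluripotent sample (background 16.8% of the genes in set 4 alone), 4 were above by less and 14 were not above (background 56.5%). Of the 81 tested in CiPSCs, 17 were not called, 5 of them at adjusted p under 0.05 but under 2-fold. The 5 smallest differences were Ercc4 (-0.06 ± 0.40), Omg (-0.13 ± 0.21), Khnyn (0.16 ± 0.33), Ift88 (0.17 ± 0.26) and Fastk (0.30 ± 0.36). Ift88, of cilium transport, had 28869 in CiPSCs and 65183 in ESC5 against 600 at Day32 in set 5, but in set 3 69.2 and 55.9 in CiPS WT1 and CiPS WT2 and 54 in ESC3, against 42.9 in WT MEF.

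Genes ranked highest by the set 5 ratio were found again in set 4 in smaller shares. Of ranks 1 to 12, 3 of 6 genes measured in set 4 were at least 2-fold above MEF2 in every pluripotent sample, and of ranks 13 to 36, 8 of 20 were. The counts were 22 of 32 for ranks 37 to 72, 26 of 32 for ranks 73 to 108 and 24 of 32 for ranks 109 to 143. Over all genes in set 4 the share was 15.9%. In CiPSCs 1 of 3, 4 of 9, 15 of 19, 19 of 22 and 22 of 28 tested genes of these bands rose (background 16.4%). The trend over bands was not tested, and the first band holds few genes.

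**Figure D5:**
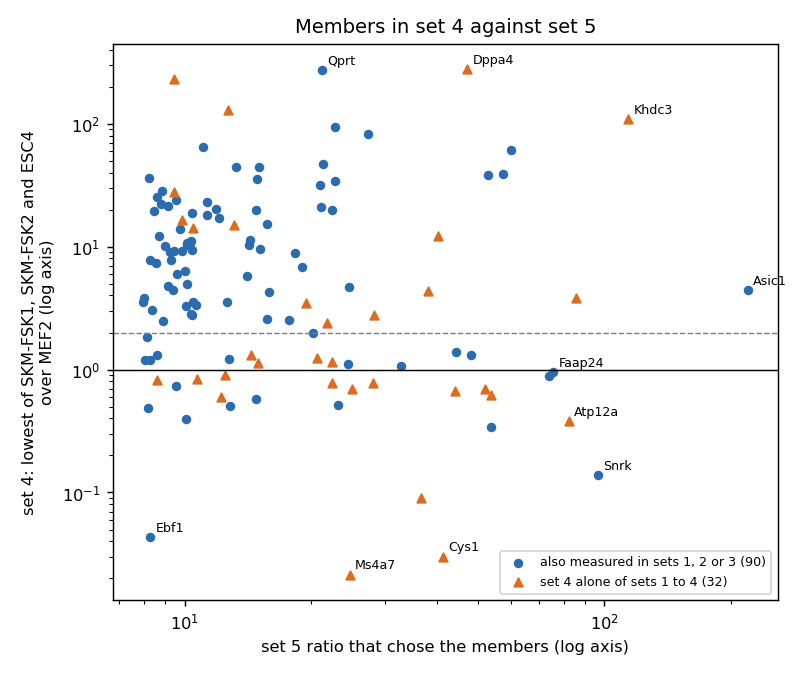
Set 5 ratio of the 122 genes measured in set 4 (horizontal log axis, the values that chose them) against the ratio of the lowest pluripotent sample to MEF2 in set 4 (vertical log axis), with values under 16 set to 16. The vertical values span 0.021 for Ms4a7 and 277 for Dppa4, and genes under a ratio of 1 occur at high as well as low set 5 ratios. Triangles mark the 32 genes measured in set 4 alone of sets 1 to 4, and the dashed line marks 2-fold.

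Most of the genes have a single probe. Of the 143 genes, 27 had 41 further probes on the array; the set 5 ratio of these had a median of 1.0, 8 (in 7 genes) reached 2 and 23 were at 1 or less. Only 3 of the 41 were at 500 or more in both pluripotent samples, and 12 were under 100 in every sample of set 5. Among genes named above, a further probe of Dppa4 had a set 5 ratio of 0.498 and one of Fndc4 0.137. A further probe of Pecam1 had 15.8 and one of Ak4 6.22. Values given for a gene are those of its brightest probe alone. On the X chromosome lay 10 of the 143 genes (6.99%, against 3.88% of all genes).

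Between pluripotent groups, CiPSCs were compared with ESCs and OSKM iPSCs with CiPSCs. Of 81 genes, 0 were called between CiPSCs and ESCs (limma; 6 at an unadjusted p under 0.05, or 7.41%, against 6.36% of all genes, and 4 of 13164 genes, 0.0304%, called over all genes, 0.0152% in each direction). The largest positive differences, CiPSC minus ESC, were 1700097N02Rik (1.64 ± 0.65), Klf2 (1.16 ± 0.38, adjusted p 0.51), Ebf1 (0.93 ± 0.36), Snrk (0.82 ± 0.37) and Mia (0.75 ± 0.43). The largest negative ones were Stag3 (-0.93 ± 0.47), Efhc2 (-0.81 ± 1.10), Ak4 (-0.79 ± 0.42), Tex19.2 (-0.73 ± 0.64) and Sh3gl2 (-0.64 ± 0.46). Without set 2, 3 of 68 genes were called (4.41%, against 170 of 10578 genes, 1.61%): Piwil2 (1.46, adjusted p 0.0495), Ebf1 (1.36, 0.0278) and Stag3 (-1.52, 0.0264). Between OSKM iPSCs and CiPSCs 0 of 67 were called (limma; 11 at an unadjusted p under 0.05, or 16.4%, against 9.92% of all genes, and 0 of 10709 genes, a background of 0%). The largest of these, Dmrt1, was lower in the OSKM lines by a log2 difference of -2.20 ± 0.72 (adjusted p 0.379). Fibroblast and feeder genes differed among the pluripotent lines too: in set 3 their sum over 22 genes was 63545 and 73416 in CiPS WT1 and CiPS WT2, against 22658 in ESC3, and its part in these values was not tested.

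Beside them stand 150 genes already on at day 32, chosen in set 5 by the largest ratio of the lowest of Day32, CiPSCs and ESC5 to MEF3, with at least 500 in those 3 samples; 2 of them are also among the 143. Their set 5 medians were 41.4 in MEF3, 770 at Day12, 948 at Day20, 1176 at Day32, 2036 in CiPSCs and 2284.5 in ESC5. In sets 1 to 4, 41 of 105 of them rose in CiPSCs (39.0%, background 16.4%, median 0.68). In ESCs 46 of 116 of them rose (39.7%, background 16.1%). These shares stand against the 75.3% and 73.3% above, and the difference between lists was not tested.

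Of 38 naive pluripotency genes, 4 were in the list, 5 had been set aside, 18 were under 500 in CiPSCs or ESC5 and 5 were already over 500 and at least 2-fold over MEF3 at Day32, among them Tbx3 (8643), Klf5 (8533), Klf4 (5643) and Trim71 (710.5). Of 41 germ cell genes, 7 were in the list, 2 had been set aside, 23 were under 500 in CiPSCs or ESC5 and 1, Kit, was on at Day32 (20933). Of 34 oocyte and preimplantation genes, 2 were in the list, 1 had been set aside, 14 were under 500, and Tle6 was on at Day32 (1213). In CiPSCs 19 of 27 germ cell genes and 4 of 10 oocyte genes tested rose (background 16.4% of all genes).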

How the data were processed

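Expression was measured in 30 mouse samples on Phalanx Mouse OneArray chips read in 1 colour. The values are linear intensities that the authors normalized within each of 5 sets and deposited, per the labels and the design text, which gives each sample as a merge of 2 or 3 replicates; how they were merged and why probes are missing from whole sets is not given in the sources used here. Of 26423 probes, 21876 have 1 gene. Column medians were nearly equal within a set (109.5 to 110 in set 5) and the highest values stood near 65497 in set 5. No intervals are given, since the number of arrays limits the precision.

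Values under 16 were set to 16 and log2 taken. The 143 genes were selected with Python 3.11.15 and pandas 2.3.3. Sets 1 to 4 (24 samples) were fitted with limma 3.58.1 in R 4.3.3 on all genes, with group and set as terms. A gene was called at a Benjamini-Hochberg adjusted p under 0.05 and a 2-fold difference. Set 5 took no part in the fit. On simulated data the CiPSC comparison recovered 28% of 2-fold and 93% of 4-fold changes and the ESC comparison 26% and 87%. The OSKM comparison recovered 15.7% and 75.3% and the SKM-FSK comparison 7.1% and 48%. A call needs an estimate of at least 2-fold, which by itself limits the recovery of true 2-fold changes. The simulation added the same change to every pluripotent sample, with independent normal noise. A gene was tested where at least 2 sets with both groups held its values (1 set for the SKM-FSK iPSCs). The fit also had to leave at least 3 residual degrees of freedom, so some measured genes were not tested.

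The genes, lists and role groups were chosen with earlier results of these data known. Named by rule were the 12 largest ratios, the limit genes, the called genes of each list, the 8 largest and 5 smallest CiPSC differences, the highest MEF3 levels and Day32 ratios, and the largest CiPSC minus ESC differences; others were named by role after their values were seen. Replicate numbers in the titles do not link the samples of different groups to a shared animal or batch. Alternatives were another floor, filter, normalization, covariates, probe choice, and leaving out samples or sets.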

Additional observations from a re-analysis of the deposited data

Results flagged for a closer look

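Among 38 groups of 4 to 10 samples in 18 genes, 4 held a sample far from the others; chance alone flags about 1 group in 20. All values are log2 intensity minus the ESC of the same set. Qprt was -7.16 in MEF1, against -8.30 to -7.87 in the other somatic samples (n = 6 in all). Rec114 was -1.56 in the line CiPS21, against -0.44 to 0.13 in the other CiPSC lines (n = 8), and -4.52 in ADSC, against -6.98 to -6.36 in the other somatic samples (n = 5). Tex19.2 was -5.61 in MEF1, against -3.33 to -2.73 in the other somatic samples (n = 6). As an intensity, Tex19.2 was 99.0 in MEF1, within the other somatic samples (lowest 56.4 in set 2, highest 138.4 in set 4). The flag therefore does not mark a low level in MEF1, because the value also depends on the ESC of set 1.

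In 3 genes every ESC was below every somatic sample in each of sets 1 to 4 that measured them, opposite to set 5, where ESC5 was above MEF3. The ESC minus somatic difference was -2.97 for Snrk, -0.54 for Cstad and -2.97 for Ebf1 on the log2 scale. The difference between set 5 and the other sets was not tested.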

How the results depend on the processing

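Counts of genes called higher stayed within 1.5 times under all settings that gave a value. In CiPSCs the count of 61 ran between 51 (without MEF1) and 62 with 1 sample left out and between 50 and 64 elsewhere; in ESCs 66 ran between 57 and 68, and 57 and 69; in OSKM iPSCs 45 ran between 43 and 46, and 40 and 48; in SKM-FSK iPSCs 63 ran between 53 and 64, and 56 and 74. With the replicate block (the number in the titles as a random block) the counts were 61, 66, 45 and 63, with 0 in both comparisons between pluripotent groups. Because these numbers do not link samples of different groups, that setting cannot show whether samples share a culture or batch. CiPSC against ESC gave 3 calls without set 2 and 0 elsewhere; OSKM against CiPSC gave 0 in all. Selection shared 143 genes with a floor of 8 or 32 or quantile normalization, 130 with a lower minimum level, 109 with a higher one, 118 with the mean of probes, 110 by CiPSCs alone and 85 by ESC5 alone; the cause was not tested. Among ESC calls, that of Clspn was lost without MEF2 or ESC4 and the lower call of Tmcc1 without ESC2, MEF2 or ESC4. OSKM against somatic had no value with MEFs as the only somatic cells, without set 1 or 2, or without MEF1, OSKM iPS1 or OSKM iPS2; SKM-FSK against somatic had none without set 4 or MEF2; OSKM against CiPSC had none without set 1, set 2 or either OSKM line. Setting values under 16 to 16 makes the set 5 ratios of some genes smaller than on the raw intensities. Some low intensities can be failed estimates, and which ratio is nearer the true one was not tested.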
